A study of Mus musculus with 35 samples.

Results

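The replication-dependent histone genes of mouse chromosome 13 were examined through the ChIP-seq regions listed in their 2 windows. The windows, in mm9, were chr13:21780000-22140000 (window 1) and chr13:23520000-23860000 (window 2), and a listed region belonged to the set when it was at most 100 kb wide and overlapped a window by at least 1 bp. This gave 417 regions, 150 in window 1 and 267 in window 2, of 250088 regions in all lists and 233211 of at most 100 kb. RNA polymerase II (Pol II) accounted for 207 of them and acetylated histone H4 (H4ac) for 196. The other 4 targets gave 14 in all: 6 for p65, 6 for ATF3, 1 for p50 and 1 for histone H3 trimethylated at lysine 27 (H3K27me3). The stretch between the windows, chr13:22200000-23400000, served as the neighbouring comparison and held 7 regions of at most 100 kb, none of them of Pol II or H4ac.

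Chromatin immunoprecipitation with sequencing (ChIP-seq) finds the DNA that a protein or a histone mark sits on, and was done for 6 targets in 35 libraries. The cells were primary macrophages grown from bone marrow of wild-type female C57BL/6 mice, 8 to 12 weeks old, left unstimulated or given lipopolysaccharide (LPS), a component of the bacterial outer membrane. Each library came with 1 list of regions, 255 to 28522 regions long, each with a score from the authors that ranks regions within its list only. The lists are nested: a wide region can contain narrower ones, and the read depth behind them is unknown.

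H4ac had 2 libraries, lettered A and B, without LPS and 2 at each of 60, 120 and 240 min. Pol II had 1 unstimulated library (A), 2 at 60 min (A, B), 1 at 120 min (A), 2 at 240 min (A, B) and 1 at 360 min (A). p50, a DNA-binding subunit of NF-κB, had 3 unstimulated libraries and 4 at 60 min, and p65, the subunit with the activation domain, had 1, 2 and 2 libraries at 0, 60 and 120 min. ATF3, a transcription factor induced by LPS, had 3 libraries at 240 min. H3K27me3, the mark of Polycomb repression, had 1 library each without LPS and at 120 and 240 min, and 2 labelled 480 min, one of which is titled as 60 min with a 7 h delay. Nothing in the labels ties replicates to separate animals or cultures, and the p-values here cover the spread among these libraries alone, which may be technical. No annotation of the lists' build was used, so macrophage marker genes were not checked and no single region was tied to a gene.

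Replication-dependent histone genes supply the core histones H2A, H2B, H3 and H4 and the linker histone H1 that package newly copied DNA. They are short, lack introns, end in a stem-loop instead of a poly(A) tail, and are transcribed mainly while DNA is being replicated. Acetylation of histone H4 marks open, transcribed chromatin, and Pol II transcribes these genes in nuclear bodies built around the clusters. None of the libraries measures the cell cycle.

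The gene content of the cluster was taken from RefSeq on GRCm38.p6, by name and order only. In that order the cluster was 2 blocks with 52 protein-coding histone genes: 6 of H1, 12 of H2A, 14 of H2B, 9 of H3 and 11 of H4. Further along the chromosome, beyond the Slc17a genes, H2bc1, H2ac1 and the pseudogene H2af-ps2 were set apart from the blocks and not counted. Block 1 had 23 coding genes and 1 pseudogene, with 1 H1 gene and 2 H3 genes, and block 2 had 29, with 5 H1 genes and 7 H3 genes. A run of 39 other genes split block 1 into 19 histone genes and a last 5. That run held 31 tRNA genes, the zinc finger gene Zfp184, Pom121l2 and Prss16, a thymus-specific serine protease. Block 2 was interrupted by Hfe, the haemochromatosis gene. Between the blocks lay 147 genes and pseudogenes, 75 of them vomeronasal receptors of the Vmn1r family, which belong to pheromone-sensing neurons, and 46 of them tRNA genes.

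Promoters of these genes are shown because they are the sequences on which Pol II assembles and because members of the families differ in them. The table of RefSeq promoters held 50 promoters for 49 of the 52 genes, 49 of them distinct in sequence. The 250 bases before the start are printed 5′ to 3′ on the gene's strand, in GRCm38.p6 positions that cannot be set against the mm9 positions of the lists. Capitals mark the letters CCAAT, bound by NF-Y, or their reverse complement ATTGG, and the TATA box TATAAA. H2bc13 (chr13:21716184-21716433, minus strand) and H2ac13 (chr13:21716162-21716411, plus strand) are a divergent pair that shares its promoter. H1f5 (chr13:21780626-21780875, minus strand) encodes a linker histone, H3c10 (chr13:21717378-21717627, plus strand) an H3 and H4c11 (chr13:21734784-21735033, plus strand) an H4.
H2bc13: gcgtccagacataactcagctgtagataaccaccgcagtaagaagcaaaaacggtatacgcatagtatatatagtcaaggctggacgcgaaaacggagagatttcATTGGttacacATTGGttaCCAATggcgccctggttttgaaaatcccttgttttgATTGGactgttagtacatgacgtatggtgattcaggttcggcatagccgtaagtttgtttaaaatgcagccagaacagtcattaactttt
H2ac13: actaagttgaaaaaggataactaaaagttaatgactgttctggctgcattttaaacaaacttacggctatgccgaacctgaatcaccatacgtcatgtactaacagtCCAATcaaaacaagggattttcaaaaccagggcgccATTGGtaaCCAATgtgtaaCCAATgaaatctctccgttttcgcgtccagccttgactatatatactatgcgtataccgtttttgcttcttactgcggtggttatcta
H1f5: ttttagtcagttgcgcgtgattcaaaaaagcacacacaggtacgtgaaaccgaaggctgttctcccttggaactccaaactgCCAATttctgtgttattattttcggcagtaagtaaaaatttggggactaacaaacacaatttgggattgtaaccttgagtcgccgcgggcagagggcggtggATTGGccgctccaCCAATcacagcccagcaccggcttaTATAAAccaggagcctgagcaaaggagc
H3c10: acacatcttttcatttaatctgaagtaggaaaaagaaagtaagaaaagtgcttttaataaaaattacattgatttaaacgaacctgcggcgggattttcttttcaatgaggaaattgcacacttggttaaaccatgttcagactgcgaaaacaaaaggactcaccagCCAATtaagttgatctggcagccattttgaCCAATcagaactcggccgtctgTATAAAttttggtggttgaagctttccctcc
H4c11: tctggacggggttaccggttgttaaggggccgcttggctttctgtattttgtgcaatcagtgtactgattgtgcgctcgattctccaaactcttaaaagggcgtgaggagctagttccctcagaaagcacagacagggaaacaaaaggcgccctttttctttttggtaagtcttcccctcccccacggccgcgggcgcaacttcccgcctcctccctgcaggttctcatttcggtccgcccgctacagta

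The pair H2bc13 and H2ac13 reads as one sequence on both strands, with 4 CCAAT boxes that serve as the same letters for both genes. In all, 9 divergent pairs were found among the promoters, each of an H2A with an H2B gene, sharing 233 to 279 bases of their entries in the table. CCAAT on either strand was in 42 of 50 histone promoters (84.0%) and in 33.85% of all 32851 promoters in the table. Every matched H1, H2A, H2B and H3 promoter held it, against 3 of 11 H4 promoters, and H4c11 above holds neither box. TATAAA was in 24 of 50 (48.0%) against 12.37% of all promoters. ATTTGCAT, the octamer bound by Oct-1, was in 9 of 50 (18.0%) against 1.601%, and only H2A (4 of 12) and H2B (5 of 14) promoters held it. Of 2 E2F-type sequences searched, TTTCGCGC was in 7 of 50 (14.0% against 0.2557%), 3 of H2A and 4 of H2B, and TTTGGCGC was in none (0.417% of all promoters). All motifs were searched on both strands and counted one by one, whether or not their letters overlap another's, and a match is a description of the sequence only.

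Pol II regions were most numerous in the windows of unstimulated macrophages and fewest at 360 min of LPS. The unstimulated library listed 60 regions in the windows. At 60 min A listed 31 and B 37, and at 120 min A listed 41. At 240 min A listed 18 and B 16, and the library at 360 min listed 4. Every library up to 120 min thus held more regions than every later one, with 1 or 2 libraries at each time. List length does not run in that order: it was 7436 unstimulated, 5519 and 6061 at 60 min, 4559 at 120 min, 5144 and 7728 at 240 min, and 2948 at 360 min.

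**Figure D1:**
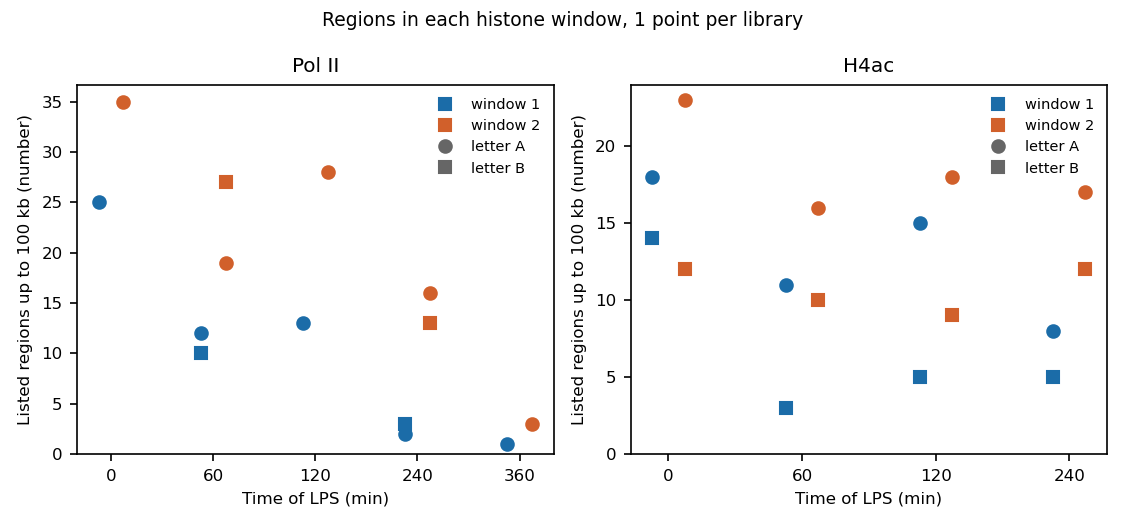
Number of listed regions up to 100 kb in window 1 (blue) and window 2 (orange) against the time of LPS in min, 1 point per library (circle, letter A; square, letter B), for Pol II and H4ac. Pol II in window 1 runs from 25 regions at rest to 2 and 3 at 240 min and 1 at 360 min, and in window 2 from 35 to 16 and 13, then 3.

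The order was the same with each list limited to its best-scored 2948 regions. The windows then held 49 regions unstimulated, 24 and 30 at 60 min (A and B), 37 at 120 min, 9 and 8 at 240 min and 4 at 360 min. Over the rest of chromosome 13, these equally long lists covered 0.7627% of bases unstimulated, 1.11% and 1.03% at 60 min, 1.25% at 120 min, 1.25% and 0.9446% at 240 min and 0.6485% at 360 min. In lists of equal length the rest of the chromosome was thus at or above its unstimulated level at 240 min, while the windows were not. In the complete lists it was at 2.082% unstimulated and at 2.031% (A) and 2.40% (B) at 240 min. For regions up to 10 kb in those lists the values were 0.3086%, 0.2338% and 0.4059%, so library A lay below the unstimulated one.

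At rest the histone windows held some of the best-scored Pol II regions of the genome. Of the 100 best-scored regions in the unstimulated list, 22 lay in the 2 windows, 6 in window 1 and 16 in window 2. The windows held 0 and 1 of the best 100 at 60 min (A and B) and 0 in every later list. Of the best 1000 they held 38 unstimulated, 14 and 16 at 60 min, 23 at 120 min, 1 and 1 at 240 min and 0 at 360 min. The median member ranked at 4.46% of the list unstimulated, at 20.1% to 21.8% in the libraries at 60 and 120 min, and at 43.0% to 62.6% in those at 240 and 360 min. Ranks place a region within its own list and do not measure a change in its signal.

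The share of the windows' bases covered by Pol II regions of at most 100 kb was 23.0% unstimulated, 12.1% and 12.8% at 60 min (A and B) and 18.4% at 120 min. It was 8.46% and 6.59% at 240 min (A and B) and 0.2329% at 360 min. Regions of at most 10 kb covered 8.99% unstimulated, 7.02% and 6.51% at 60 min, 6.83% at 120 min, 1.53% and 3.39% at 240 min and 0.2329% at 360 min. Divided by the same share over the rest of chromosome 13, the narrow regions were 29.1-fold denser in the windows unstimulated, 28.7-fold and 29.0-fold at 60 min and 38.4-fold at 120 min. That ratio was 6.55-fold and 8.35-fold at 240 min and 2.71-fold at 360 min. By this ratio the unstimulated, 60 min and 120 min libraries lie together and the 3 later ones lower. With regions up to 100 kb the ratio was 11.04 unstimulated, 5.97 and 5.17 at 60 min, 10.7 at 120 min, 4.16 and 2.75 at 240 min and 0.359 at 360 min. There the later 3 were again the lowest, but the 60 min libraries lay nearer to them than to the unstimulated one. With 1 unstimulated library and at most 2 at any time, no test of time was made.

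**Figure D2:**
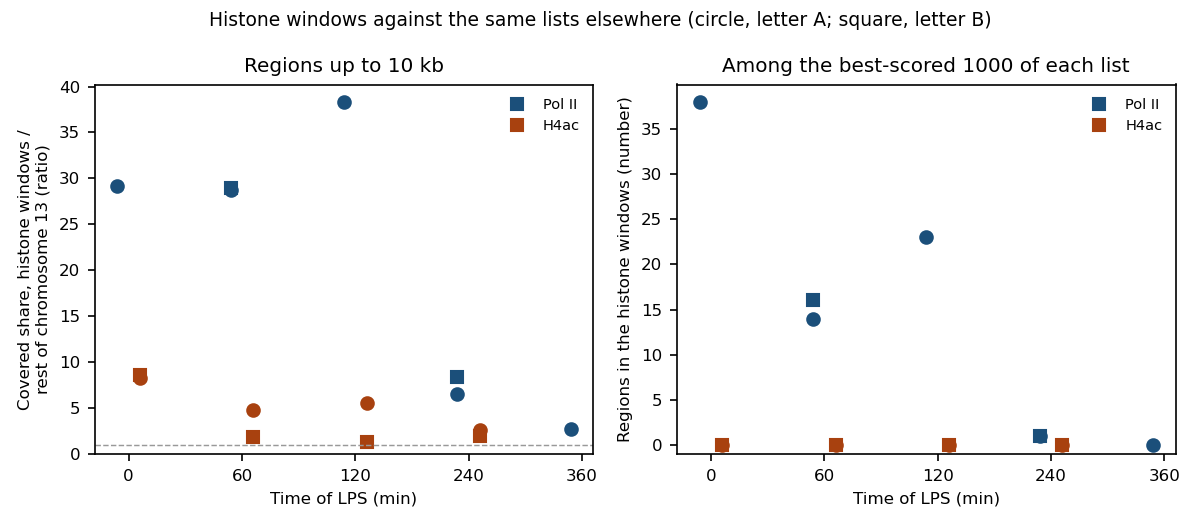
Left, covered share of the histone windows divided by that of the rest of chromosome 13, for regions up to 10 kb, against the time of LPS in min; right, number of histone-window regions among the best-scored 1000 of each list. Each point is 1 library (circle, letter A; square, letter B), Pol II in blue and H4ac in brown, and the dashed line marks a ratio of 1; Pol II sits at 28.7 to 38.4 up to 120 min and at 2.71 to 8.35 from 240 min.

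The dates in the library titles differ between Pol II libraries, and the unstimulated one shares its date with no other Pol II library. Its difference from the LPS libraries and its date cannot be told apart. The libraries A at 60, 120 and 360 min carry 1 date, and their members numbered 31, 41 and 4. Those of letter B at 60 and 240 min carry another, with 37 and 16. Within each date the latest library held the fewest.

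Window 1 and window 2 differed in how much Pol II was left late. In window 1, Pol II covered 16.5% of bases unstimulated, 11.5% and 4.60% at 60 min and 16.8% at 120 min. The later libraries there had 0.2472% and 1.48% at 240 min and 0.1528% at 360 min. Window 2 had 29.8% unstimulated, 12.7% and 21.5% at 60 min, 20.0% at 120 min, 17.2% and 12.0% at 240 min and 0.3176% at 360 min. At 240 min window 1 was thus at 1.48% or less in both libraries and window 2 at 12.0% or more. This level of window 2 rests on regions of 10 to 100 kb and on complete lists. Regions up to 10 kb covered 2.891% and 5.415% of it at 240 min, and 0.2472% and 1.475% of window 1. With lists of equal length, window 2 had 28.6% unstimulated and 1.485% and 1.512% at 240 min. Window 1 then had 16.11% unstimulated and 0.2472% and 0.3028% at 240 min. The difference between the windows was not tested. Regions over 100 kb, left out here, also lay over the windows: one of 235.7 kb covered 69.3% of window 2 in the 240 min library B, and others lay over it in the unstimulated, 60 min, 120 min and 240 min A libraries. Window 1 lay under such a region in the unstimulated, 60 min and 120 min libraries and under none at 240 or 360 min.

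Joined across libraries, the Pol II regions of at most 10 kb formed 28 merged regions, 11 in window 1 and 17 in window 2, and every one was held by the unstimulated library. At least 1 list held 23 of them at 60 min, 23 at 120 min, 15 at 240 min and 4 at 360 min. In window 1 these were 7, 7, 2 and 1 of 11, and in window 2 they were 16, 16, 13 and 3 of 17. A merged region is called lost at a time when every unstimulated list and no list of that time held it. By that rule 5 of 28 were lost at 60 min (17.9%), against a genome-wide background of 58.9% of 4282 regions. The corresponding counts were 5 of 28 at 120 min (background 75.3%), 13 of 28 at 240 min (46.4%, background 63.7%) and 24 of 28 at 360 min (85.7%, background 78.7%). The share lost thus lay below the background at 60, 120 and 240 min and near it at 360 min, and these differences were not tested. The 60 min count was 8 without library A, and both counts rest on the width limit: with regions up to 100 kb, 2 were lost at 60 min and 5 at 240 min, and with regions up to 1 kb, 22 and 26.

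**Figure D3:**
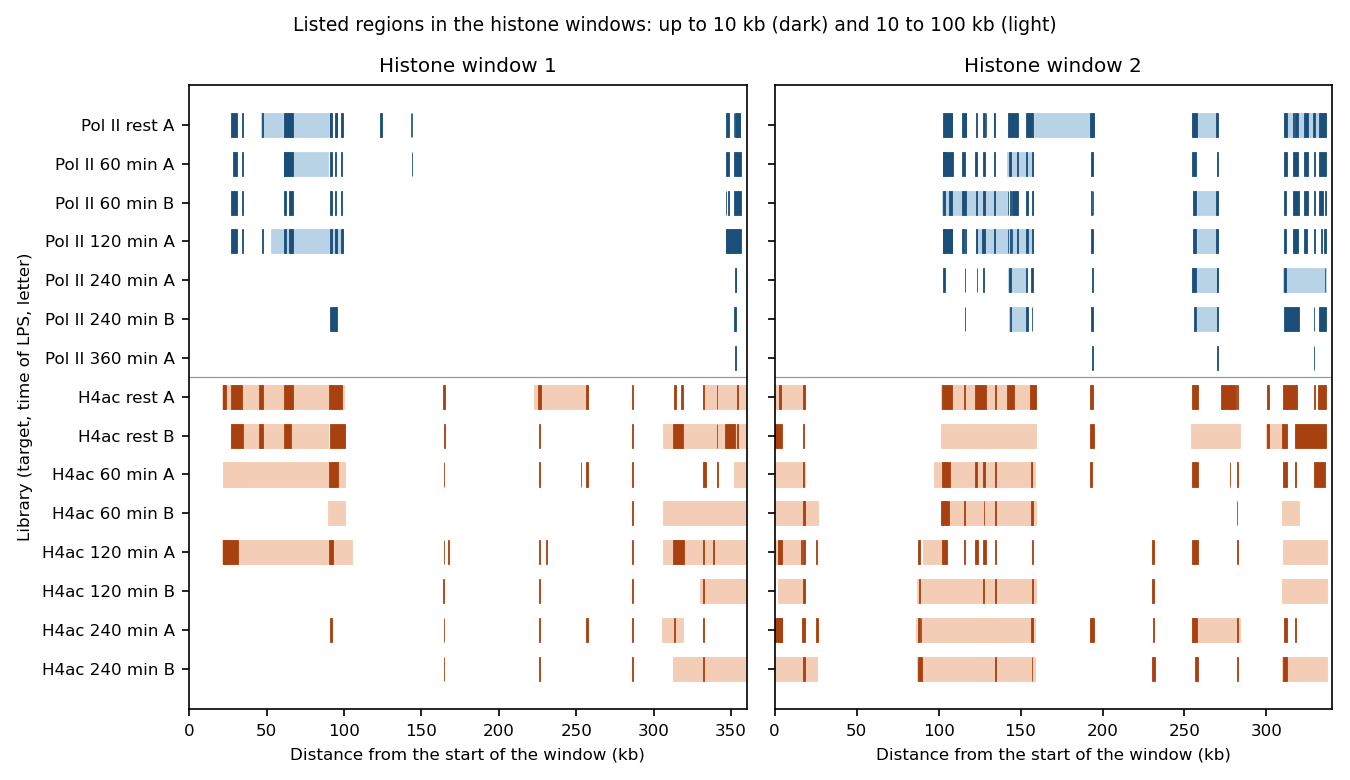
Regions of each Pol II (blue) and H4ac (brown) library along window 1 and window 2, as distance from the window's start in kb; dark bars are regions up to 10 kb and light bars 10 to 100 kb, 1 row per library. Pol II regions up to 10 kb in window 1 lie at the 2 ends, with 202.4 kb between them free of such regions. H4ac has narrow regions there, and the Pol II rows at 240 and 360 min are the emptiest.

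The best-ranked Pol II region of the windows was chr13:23646801-23648530, at rank 5 of 7436 in the unstimulated list. The merged region around it, 1750 bp long, was covered over 1730 bp unstimulated, 1350 and 790 bp at 60 min (A and B), 1610 bp at 120 min and 940 and 0 bp at 240 min, with 0 bp at 360 min. In window 1 the best was chr13:21870981-21872490, at rank 6. Its merged region, chr13:21870861-21875300, was covered over 2400 bp unstimulated, 2120 and 2150 bp at 60 min, 2630 bp at 120 min, 0 and 4220 bp at 240 min and 0 bp at 360 min. At 240 min the pair of libraries thus disagreed on both: A alone held the first and B alone the second.

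Of the 28 merged regions, 15 were covered more in every library up to 120 min than in every later one, 5 of them in window 1. In 6, 4 of them in window 1, every library up to 120 min and no later one held the region. As examples of these, 2 near the start of window 1 were picked after their values were seen. At chr13:21806981-21810980 Pol II covered 3730 bp unstimulated, 2530 and 4000 bp at 60 min, 3320 bp at 120 min and 0 bp in all 3 later libraries. At chr13:21841031-21847010 it covered 5970 bp unstimulated, 5370 and 3520 bp at 60 min, 3210 bp at 120 min and again 0 bp in all 3. In both, the libraries up to 120 min and those from 240 min did not overlap.

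Only 3 merged Pol II regions were in all 7 lists. At chr13:22126451-22136340, at the end of window 1, Pol II covered 6020 bp unstimulated, 6540 and 5160 bp at 60 min and 9600 bp at 120 min. The later libraries covered 890 and 1090 bp at 240 min and 550 bp at 360 min, so this region stayed in every list but was narrower in the last 3. At chr13:23712661-23714570 the covered lengths were 1910 bp unstimulated, 1460 and 910 bp at 60 min, 1470 bp at 120 min, 560 and 840 bp at 240 min and 320 bp at 360 min. At chr13:23789311-23790340 they were 920 bp unstimulated, 750 and 1030 bp at 60 min, 820 bp at 120 min, 510 and 220 bp at 240 min and 620 bp at 360 min. These 3 regions are those singled out by the count of lists, after their values were seen.

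Most Pol II regions of the windows lay on acetylated chromatin. Of regions up to 10 kb in the unstimulated list, 52 of 55 (94.5%) touched an H4ac region of an unstimulated library. No interval is given, since listed regions can be nested in one another and are not independent. Genome-wide the share was 92.3%, close to that in the windows. At 60 min the counts were 26 of 29 and 32 of 35 (A and B; genome-wide 90.5% and 84.5%), and at 120 min 35 of 37 (87.3%). At 240 min they were 15 of 15 and 13 of 14 (88.0% and 78.4%). Contact with H4ac was thus usual for Pol II regions in the whole genome and says nothing particular about the windows.

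H4ac covered more of the windows in both unstimulated libraries than in any LPS library. Regions of at most 100 kb covered 36.0% and 36.4% of the windows' bases unstimulated (A and B). After LPS the shares were 26.9% and 22.9% at 60 min, 30.1% and 21.2% at 120 min and 18.9% and 25.4% at 240 min. The means were 36.2% ± 0.284 (SD, n = 2) unstimulated and 24.2% ± 4.05 (SD, n = 6) after LPS, and each of the 6 LPS libraries lay below both unstimulated ones. The difference of -12.0 percentage points had p = 0.07143 in a two-sided exact permutation test, the smallest value that 2 against 6 libraries can give, and p = 0.196 after Benjamini-Hochberg adjustment over 11 tests, so it did not pass the threshold of 0.05. The 11 tests include comparisons with the stretch, which held no H4ac or Pol II region of at most 100 kb. Their small p-values make this adjusted value lower than it would be without them. Over the rest of chromosome 13 the shares were 4.53% ± 0.941 (SD, n = 2) and 3.77% ± 1.17 (SD, n = 6), which overlap. Within the date shared by all libraries of letter B, the values were 36.4% unstimulated against 22.9%, 21.2% and 25.4%. Within that shared by A at 0, 60 and 120 min they were 36.0% against 26.9% and 30.1%.

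As a ratio, the gap between unstimulated and LPS libraries was larger for regions up to 10 kb. Regions up to 10 kb covered 12.4% and 10.0% of the windows unstimulated (A and B), 5.29% and 1.30% at 60 min, 5.59% and 0.9229% at 120 min, and 3.40% and 1.87% at 240 min. The mean after LPS was 0.2728 times that before in the windows and 0.7177 times over the rest of chromosome 13. With complete lists, regions up to 100 kb gave no such separation: the windows' share over that of the rest of chromosome 13 was 6.93-fold and 9.43-fold unstimulated and 3.52-fold to 9.05-fold after LPS. Those groups overlap, and the difference of -1.26 had a two-sided exact permutation p = 0.4286 (adjusted p = 0.6875). With lists of equal length the difference in this ratio was -7.327, and in the better-scored 50% of each list it was -11.95. Each had an unadjusted exact permutation p = 0.07143, the smallest possible. With all widths it was -0.8661 (exact permutation p = 0.2857), and with regions up to 1 kb it was 0.9416, with the opposite sign. For regions up to 1 kb the windows had 0.7986% ± 0.289 (SD, n = 2) unstimulated and 0.7552% ± 0.285 (SD, n = 6) after LPS (exact permutation p = 0.857), a difference smaller than the spread between libraries. With all widths the shares were 51.5% ± 21.3 (SD, n = 2) and 36.5% ± 19.8 (SD, n = 6), which overlap. Single wide regions enter there: one of 1964 kb over all of window 1 in the unstimulated library A, one of 342.5 kb over 94.1% of it in the 60 min library B, and one of 342.3 kb over 98.8% of window 2 in the 60 min library A.

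By mean level the H4ac difference was larger in window 1 than in window 2, but the difference between the windows did not pass its test. The window 1 covered share was 40.6% and 35.6% unstimulated, 25.6% and 18.1% at 60 min, 38.8% and 8.73% at 120 min and 5.16% and 13.6% at 240 min. The 120 min library A alone lay between the 2 unstimulated libraries. Window 2 had 31.2% and 37.3% unstimulated, 28.3% and 27.8% at 60 min, 20.8% and 34.5% at 120 min and 33.5% and 38.0% at 240 min, so its groups overlapped. The LPS difference in window 1 minus that in window 2 was -16.1 percentage points (two-sided exact permutation p = 0.357, adjusted p = 0.6875), and with regions up to 10 kb it was 0.1936, with the opposite sign. Among the better-scored 50% of each list, H4ac covered 30.1% and 21.2% of window 1 unstimulated and 0.1111% to 0.625% in the 6 LPS libraries. The unstimulated values rest on wide regions just inside the better-scored part: 78910 and 31930 bp at 48.0% and 48.3% of the list in A, and 57730 bp at 45.6% in B. With lists of equal length the window 1 shares were 30.1% and 35.3% unstimulated and 0.6139% to 18.1% after LPS, which is a smaller gap without overlap. The better-scored part of window 2 had 20.4% and 29.7% unstimulated, and 1.67% to 21.9% after LPS, and the groups overlap.

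**Figure D4:**
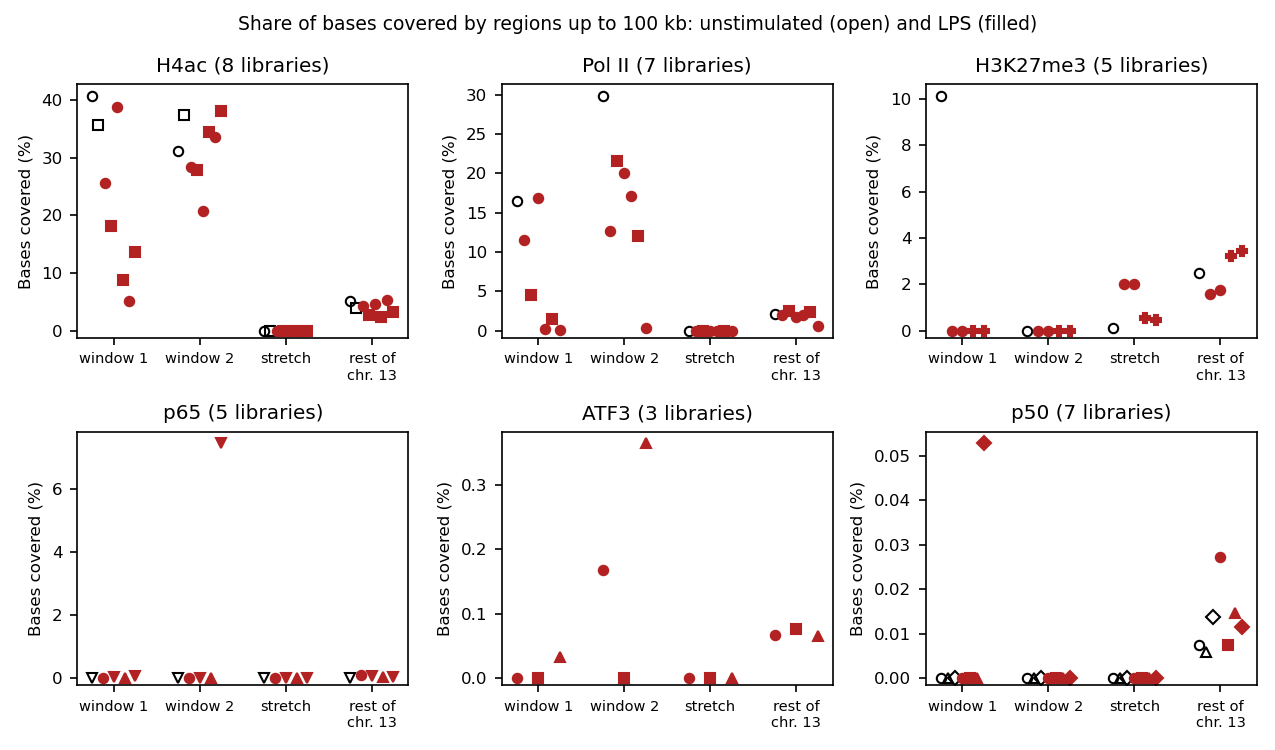
Share of bases covered by regions up to 100 kb in window 1, window 2, the stretch between them and the rest of chromosome 13, for each target; each point is 1 library, open for unstimulated and filled for LPS, in order of time within a column, with its shape for the letter (circle A, square B, triangle C, diamond D, inverted triangle X, plus none), and each panel has its own axis. H4ac and Pol II sit at 0 in the stretch; H4ac is above the rest of chromosome 13 in window 2 of every library, Pol II in window 1 is at 0.1528% to 1.48% at 240 and 360 min, and H3K27me3 is at 0 in window 2 and present in the stretch.

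Joined across libraries, H4ac regions up to 10 kb formed 37 merged regions, 17 in window 1 and 20 in window 2. Both unstimulated lists held 16, 10 in window 1 and 6 in window 2, and 8 were in 1 list only. Of the 16, those lost numbered 6 at 60 min (37.5%, genome-wide background 23.0% of 13548), 8 at 120 min (50.0%, background 28.5%) and 7 at 240 min (43.8%, background 19.9%). Of the 8 that no unstimulated list held, those gained numbered 0 at 60 min (background 12.6% of 5229), 2 at 120 min (background 18.0%) and 2 at 240 min (background 26.0%). The lost shares lie above the background at each time and the gained shares on either side of it, on 16 and 8 regions, and these differences were not tested. Without the 60 min library A, 14 were lost at 60 min; at 240 min, 11 were lost without library A of that time and 12 without the unstimulated library B. Gained regions numbered 5, 6 and 6 at the 3 times without the unstimulated library A, 1 at 60 min without B, 7 at 120 min without B and 4 at 240 min without B. Raising the width limit to 100 kb left 0, 1 and 0 lost, and lowering it to 1 kb left 1, 2 and 2.

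The 4 H4ac regions lost at every LPS time were covered by both unstimulated lists and by no region up to 10 kb afterwards. At chr13:21841031-21846850 the covered length was 5600 bp in A and 4550 bp in B, and at chr13:21825261-21827820 it was 2320 and 2440 bp. At chr13:22133511-22134390 it was 860 and 840 bp, and at chr13:23820371-23821860 it was 1400 and 1340 bp. The first 3 are in window 1 and each touches a merged Pol II region; the last touches none. Wider listed regions, of 10 to 100 kb, still lay over the first 2 in 2 of 6 LPS lists each, over the third named in 5 of 6 and over the last in 0 of 6.

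By contrast, 2 H4ac regions were in all 8 lists, 1 in each window, and neither touches a merged Pol II region. At chr13:22066201-22066860 the covered length was 520 and 640 bp unstimulated (A and B), 560 and 400 bp at 60 min, 500 and 660 bp at 120 min and 540 and 540 bp at 240 min. Its groups overlap fully. At chr13:23536971-23538630 it was 1370 and 800 bp unstimulated, 860 and 1480 bp at 60 min, 1490 and 1390 bp at 120 min and 1530 and 1380 bp at 240 min, again overlapping.

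Sorted by contact with Pol II, the 16 regions of both unstimulated lists fell into equal parts of 8. Of the 8 that touch a merged Pol II region, 4, 6 and 5 were lost at 60, 120 and 240 min and 0 were in every list. Of the 8 that touch none, 2 were lost at each time and 2 were in every list. Genome-wide the order was the other way: of 4982 such H4ac regions that touch a merged Pol II region, 5.04%, 8.85% and 4.66% were lost at 60, 120 and 240 min, and of 8566 that touch none, 33.5%, 39.9% and 28.8%. In the windows the shares lost were thus above the background for regions that touch Pol II and below it for those that do not, on 8 regions each. This contrast was chosen after the values were seen and was not tested. The layout can be seen along window 1, where Pol II regions sat at both ends and left 202.4 kb free between chr13:21924021 and chr13:22126450. That gap held 11 merged H4ac regions, 5 of them in both unstimulated lists and 3 in 7 or 8 of the 8 lists. Block 1 of the genes is likewise split by its run of tRNA genes, Zfp184, Pom121l2 and Prss16, but the 2 builds were not matched by position.

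The 2 regions gained at both 120 and 240 min lie in window 2 and touch no merged Pol II region. At chr13:23607651-23609850, H4ac covered 690 and 260 bp at 120 min (A and B) and 870 and 2200 bp at 240 min. At chr13:23750451-23752220 it covered 830 and 990 bp at 120 min and 690 and 1770 bp at 240 min. Both were at 0 bp in the unstimulated and 60 min libraries.

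The stretch between the windows held no H4ac or Pol II region of at most 100 kb in any library. Wider Pol II regions lay over it in the unstimulated, 60 min and 120 min libraries. Up to 100 kb, windows minus stretch is the windows' own share, on average 27.2 percentage points for H4ac and 11.7 for Pol II. No test is given for it, since any coverage in every library would give the smallest p. Against the rest of chromosome 13, where both targets were present, the windows were higher by 23.3 percentage points for H4ac (8 of 8 libraries; two-sided exact paired permutation p = 0.007812, unadjusted). For Pol II they were higher by 9.73 percentage points (exact paired permutation p = 0.03125, unadjusted). This held in 6 of 7 libraries, the exception being that at 360 min. Any locus above the rest of the chromosome in all 8 H4ac lists would give the smallest p. Both p-values cover repetition among the libraries, and neither compares the windows with other loci.

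H3K27me3 had 1 region in the windows, in the unstimulated library, and none in the 4 LPS libraries. That region was chr13:22071041-22107450, 36410 bp wide and 10.1% of window 1, at rank 4123 of 4280. The windows' covered share in that library, 5.201%, was 2.10-fold that of the rest of chromosome 13 (2.47%). The region lies inside the part of window 1 that is free of Pol II regions up to 10 kb. In the stretch, each of the 5 libraries held 1 or 2 regions, all near its end between chr13:23375781 and chr13:23410590. Mean coverage did not separate windows from stretch for this mark (-0.001714 percentage points, n = 5, exact permutation p = 1.0), and without the unstimulated library the difference was -1.27.

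The transcription factors had 13 regions in the windows over 15 libraries, and 10 of these libraries had none. p65 had 0 regions in the unstimulated library X, 0 in A and 1 in X at 60 min, and 0 in C and 5 in X at 120 min. X at 60 min listed chr13:22114161-22114270 and X at 120 min the same place, chr13:22114141-22114310. The other 4 regions of X at 120 min were nested at 1 place in window 2, from chr13:23515411-23545350 down to 130 bp, and lay on the H4ac region that is in all 8 lists. All 5 regions of that library together covered 3.65% of the windows, 124-fold the share over the rest of chromosome 13 (0.0294%). Most of this was 1 region of 29940 bp. Those up to 10 kb covered 0.1557% of the windows, 7.482-fold the same share over the rest. The p65 stretch was at 0 in all 5 libraries, and the windows' mean excess of 0.7323 percentage points over it was 0.003929 without X at 120 min. Regions over 100 kb, left out here, lay over all of window 2 in X at 60 min and over all of both windows in X at 120 min, and with all widths the excess was 29.7.

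ATF3 had 1 region in library A, 0 in B and 5 in C. The libraries A and C both listed the place at chr13:23852861-23853430 (A) and chr13:23852801-23853450 (C), inside a Pol II region held by 6 of 7 lists. Library C also listed chr13:23830781-23831090, inside another Pol II region of 6 lists, and 3 places with no merged Pol II or H4ac region. Merged regions come from regions up to 10 kb, and wider ones were not checked at these places. Relative to the rest of chromosome 13 the windows' share was 1.21-fold in A, 0 in B and 2.99-fold in C. The mean excess over the stretch, which held no ATF3 region, was 0.0919 percentage points, and 0.04071 without C.

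p50 had 0 regions in the 3 unstimulated libraries and in A, B and C at 60 min. Library D at 60 min had 1, chr13:21802721-21802910, at rank 113 of 324. The number of regions after LPS minus that before was 0.25 (exact permutation p = 1.0), and it rests on library D alone.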

How the data were processed

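ChIP-seq was measured in 35 libraries of 6 targets, in 20 groups by target and time from the labels. Each deposited list gives positions, a scale number and the authors' score per region; per the submitters' processing notes the build is mm9, and no aligner, caller or setting is given in the sources used here. The lists hold no counts, so depth and precision per library are unknown, and a longer list can cover more for that reason alone.

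Regions up to 100 kb that overlap a window by 1 bp were counted, and covered share is the percentage of bases under their union. Merged regions joined those up to 10 kb over the libraries of a target. Tests were two-sided exact permutation tests over libraries, adjusted by Benjamini-Hochberg over 11 tests, with python 3.11.15, numpy 2.4.6, pandas 2.3.3 and scipy 1.17.1, and were tested on simulated data. Windows minus stretch was exchanged within libraries. The regions named are those in every list, those lost or gained at several times and the best-ranked ones. The windows, motifs and comparisons were chosen with earlier results of these data known. Alternatives changed the width limit, the score or length of the lists, the overlap, the comparison stretch and the libraries. Sequences and gene order are RefSeq's on GRCm38.p6. Same-lettered H4ac libraries are not stated to be pairs.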

Additional observations from a re-analysis of the deposited data

Results flagged for a closer look

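Among the 4 p50 libraries at 60 min, library D stood apart from the others in the histone windows. It held 1 region there and covered 0.02714% of the windows' bases, where the libraries A, B and C held 0 regions and covered 0%. Its list was also the shortest of the 4, with 324 regions against 1118 to 1378. The gap criterion used sets about 1 of 20 groups apart by chance where values are continuous; with the other 3 libraries at 0, any single region would meet it.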

How the results depend on the processing

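Of 128 comparisons of a result under another setting with all libraries kept, 98 stayed the same. For tests this meant an unchanged direction and side of the threshold, and for counts a value within 1.5 times. Another 1 lost the threshold, 25 moved a count by over 1.5 times and 4 turned a sign. Of 107 with a library left out, 93 stayed, 10 moved and 4 turned. These tallies do not measure stability, since many of the results could not change side of the threshold. The smallest exact permutation p was 0.07143 for 2 against 6 libraries, 0.0625 for 5 pairs and 0.25 for 3 pairs, all above 0.05. Where the stretch held none of their regions, H4ac and Pol II gave the smallest p in any case. The p50 results rested on 1 region, and calls of H4ac regions could not change under pairing. With all widths the Pol II difference between windows and stretch was 9.289 (exact permutation p = 0.375). The p50 difference was -0.008682 against the rest of chromosome 13, the H3K27me3 difference was 0.09412 with at least 50% of a region inside, the H4ac difference of window 1 minus window 2 was 0.1936 at 10 kb, and the H4ac ratio to the rest of chromosome 13 differed by 0.9416 at 1 kb, against -1.262 at 100 kb.

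H4ac regions lost at 60, 120 and 240 min numbered 0, 1 and 0 at 100 kb, 1, 2 and 2 at 1 kb, and 0, 0 and 0 with all widths. Those gained at 60 min numbered 1 at 1 kb. Those gained at 120 min numbered 1 at 100 kb, 0 with all widths, 1 in the better-scored 50% and 0 with 50% of the merged region covered. Those gained at 240 min numbered 1 at 100 kb and 0 at 1 kb, with all widths and with 50% covered. Pol II regions lost at 240 min numbered 5 at 100 kb, 26 at 1 kb, 0 with all widths and 22 with 50% covered, and at 60 min 2, 22 and 0 at the first 3 of these. The cause was not tested, other than that wider limits leave fewer separate regions by construction.

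With 1 library left out at a time, the H4ac LPS difference ran from -13.16 to -10.93, windows minus stretch from 25.93 to 28.43 for H4ac, 9.758 to 13.55 for Pol II, 0.0 to 0.004524 for p50, 0.003929 to 0.9154 for p65, 0.04071 to 0.1379 for ATF3 and -1.268 to 0.5024 for H3K27me3, where it was 0.502 without 120 min, 0.1362 without 480 min and 0.1185 without the delayed library. H4ac minus H3K27me3 ran from 25.93 to 28.51, p50 numbers from 0.0 to 0.3333, window 1 minus window 2 from -22.09 to -10.48 and the H4ac ratio from -2.508 to -0.01585. H4ac regions gained at 60, 120 and 240 min ran from 0 to 5, 2 to 7 and 2 to 6, the highest without unstimulated A, 120 min B and unstimulated A; without unstimulated A 6 were gained at 120 min, without 60 min B 1 at 60 min and without 240 min B 4 at 240 min. Those lost ran from 6 to 14, 8 to 11 and 7 to 12. Pol II regions lost ran from 16 to 17 at 240 min and 6 to 8 at 60 min.

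With the letter as a replicate block, the H4ac LPS difference was -11.99 with an exact permutation p of 0.125, and the p50 difference in number was 0.25. The counts of H4ac regions lost, 6, 8 and 7, cannot change under pairing, since a call already needs every list of both conditions. Depth is unknown, so a region that is missing from a list may lie under its limit.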
